A study of Mus musculus with 4 samples.

Results

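The genes described here encode 3 of the HCN pacemaker channels, Hcn2, Hcn3 and Hcn4, and TRIP8b, the HCN partner protein encoded by Pex5l. They were taken by symbol from the deposited count tables, and all 4 were found among the 31735 gene rows that the 4 libraries shared. Other genes of the family lie outside this choice, so shares below are shares of the 3 named channels only. HCN channels are tetramers that open when the membrane is hyperpolarized and pass an inward cation current, called Ih, which sets the resting potential and paces rhythmic firing. Cyclic AMP binds their intracellular tail and eases opening. TRIP8b binds the same channels from inside the cell, steers their trafficking and opposes the action of cyclic AMP.

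RNA bound to ribosomes was profiled in the rostral pons of adult mice by translating ribosome affinity purification (TRAP), in which antibodies against EGFP pull down tagged ribosomes with their RNA. All 4 libraries formed 1 group: immunopurified RNA of the line Cbln2-TRAP NIDA172, which carries ribosomal protein L10a (Rpl10a) fused to EGFP and is named for Cbln2, the cerebellin 2 gene, from control mice with no treatment. The labels give no ages beyond adult, and do not say whether a library is 1 animal or a pool, so p-values measure only the spread between libraries, which may be technical. Unpurified RNA was not used here, so all values are levels within the pulldown and say nothing of enrichment. The libraries held 12731825 to 21140265 counts over gene rows.

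The descriptions number replicates 1 and 2 as 1666 and 1667 and replicates 3 and 4 as 2469 and 2470. What these numbers stand for is not in the labels. Below, replicates 1 and 2 are called the first pair, and the other two libraries the second pair. The second pair stood apart in the share of its gene counts on the ribosomal RNA row Rn45s, which was 1.61% to 1.68% in the first pair and 9.29% to 24.2% in the second. Among fixed marker lists, the summed level of 6 general neuronal genes, led by Snap25, was 19206 to 22144 CPM (counts per 1000000 gene counts of a library) in the first pair and 10771 to 11107 in the second. Snap25 made up most of that sum, at 18576.5, 15908.3, 8130.8 and 6935.5 CPM in replicates 1 to 4. It was the only one of these genes that lay lower in the second pair. Syp lay higher in the second pair, and for Syt1, Rbfox3, Map2 and Nefl the pairs overlapped. The summed level of 6 microglia genes, Csf1r highest, was 3.73 to 43.0 CPM. That of 6 astrocyte genes, led by Slc1a2, was 238 to 1489 CPM, so glial RNA was present in every library. In pulldown RNA, fewer cells of a type and less RNA per cell cannot be told apart.

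TRIP8b grips the end of the channel tail, which is encoded by the end of the coding sequence. The last 30 coding bases before the stop codon are shown for each channel gene, with the last 3 codons in capitals, read from the GENCODE M21 transcripts (GRCm38).
Hcn2: tctgcgcgctcgcgcctctctTCCAACTTG
Hcn3: cccagaggtccccaaatttctGCCAACATG
Hcn4: ccagtacgctccaaactgccgTCTAATTTA
They lie at chr10:79735508-79735537 (plus strand), chr3:89147602-89147631 (minus strand) and chr9:58860731-58860760 (plus strand). Over the 9 bases in capitals, Hcn2 shared 7 with Hcn3 and 6 with Hcn4, and Hcn3 shared 4 with Hcn4. Over all 30 bases the 3 pairs shared 14 to 16. These are counts of bases and do not rank the encoded tails. The 3 codons in capitals encode Ser-Asn-Leu in both Hcn2 and Hcn4, and Ala-Asn-Met in Hcn3.

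The other end of the coding sequence also differed in base composition between the genes. The comparison of libraries below uses the GC content of the longest transcript, not of these bases. The first 60 coding bases are given with the start codon in capitals.
Hcn2: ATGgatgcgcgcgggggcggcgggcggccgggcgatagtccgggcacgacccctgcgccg
Hcn3: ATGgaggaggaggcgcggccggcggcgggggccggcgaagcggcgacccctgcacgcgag
Hcn4: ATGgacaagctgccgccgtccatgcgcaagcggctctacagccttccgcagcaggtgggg
Pex5l: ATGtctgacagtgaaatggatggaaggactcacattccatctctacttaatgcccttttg
They lie at chr10:79716669-79716728, chr3:89160000-89160059, chr9:58823512-58823571 and chr3:33082009-33082068. G and C made up 49 of the 60 bases in Hcn2, 49 in Hcn3, 40 in Hcn4 and 25 in Pex5l. Over the longest transcript, GC content was 65.4% for Hcn2, 58.0% for Hcn3, 58.0% for Hcn4 and 47.2% for Pex5l, beside a median of 49.4% over 12888 genes tested.

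Pex5l was the most abundant of the 4 genes and among the steadier ones, while the 3 channel genes were low in the first pair and higher in the second. Pex5l (ENSMUSG00000027674.16, chromosome 3, 32949408 to 33143247, minus strand, GRCm38) was at 112, 150, 115 and 198 CPM in replicates 1 to 4, or 144 ± 39.9 CPM (SD, n = 4). The highest library was 1.76 times the lowest, and the pairs overlapped, with 112 and 115 CPM in the lower library of each. The SD of its log2 CPM (pseudocount 0.5) was 0.38, below the median of 0.67 over the 10632 genes that reached 1 CPM in all 4 libraries, and only 18.2% of those genes varied less.

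Hcn2 encodes a channel that is widespread in the brain and responds strongly to cyclic AMP. Hcn2 (ENSMUSG00000020331.9, chromosome 10, 79716634 to 79736108, plus strand) was at 4.64, 4.11, 21.9 and 64.0 CPM in replicates 1 to 4, from 98, 64, 279 and 980 counts. Both libraries of the second pair lay above both of the first, and within the second pair replicate 4 held 2.92 times the level of replicate 3 (95% exact interval 2.55 to 3.35). Exact intervals here (Clopper-Pearson for ratios, Poisson for levels) cover counting error only, because the reads carried no molecular identifiers and need not be independent. The mean was 23.7 ± 28.1 CPM (SD, n = 4), so the SD exceeded the mean. Without replicate 4 the mean was 10.2 CPM.

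Hcn3 encodes a channel known for its weak response to cyclic AMP. Hcn3 (ENSMUSG00000028051.10, chromosome 3, 89146074 to 89160196, minus strand) was at 4.92, 4.76, 35.0 and 30.8 CPM, with a mean of 18.9 ± 16.3 (SD, n = 4). The libraries of a pair lay close together and the pairs far apart: within pairs the higher library was 1.03 and 1.13 times the lower, and the exact counting interval of either ratio included equal levels. Exons of Pklr, on the opposite strand, overlap 711 bases or 17.1% of the Hcn3 exons. The strand setting of the counting was not given, so reads from the shared bases cannot be told apart. Pklr was at 0.615, 2.83, 0.0785 and 1.04 CPM.

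Hcn4 encodes the slow, cyclic AMP-sensitive channel best known from the sinoatrial node of the heart. Hcn4 (ENSMUSG00000032338.9, chromosome 9, 58823412 to 58863175, plus strand) had the lowest mean of the 4 genes, at 1.14, 6.56, 9.58 and 18.1 CPM, or 8.84 ± 7.09 (SD, n = 4). In replicate 2 its CPM lay above those of Hcn2 and Hcn3, and without replicate 4 its mean was 5.76 CPM, beside 10.2 for Hcn2 and 14.9 for Hcn3. Its first pair did not agree: replicate 2 held 5.78 times the level of replicate 1 (95% exact interval 3.67 to 9.42), from 24 and 102 counts. Replicates 3 and 4 again lay above both. The SD of log2 CPM was 1.82 for Hcn2, 1.53 for Hcn3 and 1.49 for Hcn4, and 95.6% to 98.9% of the 10632 genes varied less.

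**Figure D1:**
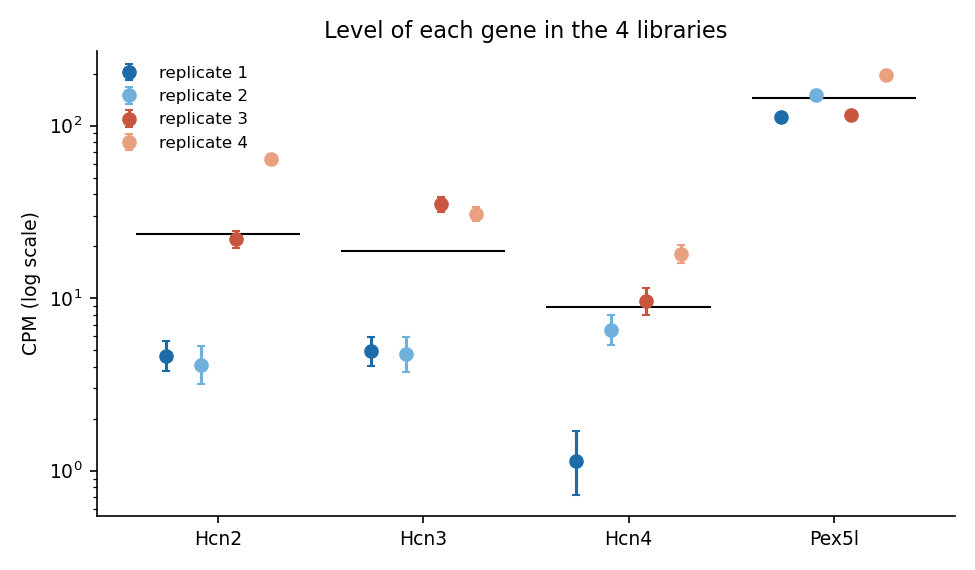
CPM of each gene in each library on a log axis, with points coloured by replicate, bars for the 95% exact Poisson interval of the count, and a black line at the mean of the 4 libraries. Pex5l sits between 112 and 198 CPM in all libraries, while Hcn2 and Hcn3 lie below 5 CPM in replicates 1 and 2 and above 20 CPM in replicates 3 and 4.

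For comparison between genes, CPM values were set against the length of all annotated exons of a gene joined together, in kilobases (CPM per kb; 3.20 for Hcn2, 4.15 for Hcn3, 6.12 for Hcn4 and 8.85 for Pex5l). On this scale the order was Pex5l at 16.3 ± 4.51 CPM per kb, Hcn2 at 7.41 ± 8.80, Hcn3 at 4.54 ± 3.92 and Hcn4 at 1.44 ± 1.16 (SD, n = 4). Of 16009 genes with a length and at least 1 count, 80.2% to 89.0% lay below Pex5l in a given library. For Hcn2 that share ran from 41.7% to 87.5%, for Hcn3 from 39.2% to 75.03% and for Hcn4 from 22.4% to 50.0%. The joined exons of Pex5l, which has 12 annotated transcripts, are longer than any of its transcripts. With its longest transcript of 4.21 kb as length, Pex5l was at 34.2 ± 9.49 CPM per kb.

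Within libraries, Pex5l exceeded each channel gene 4 of 4 times, but by a margin that differed widely between libraries. The log2 ratio of Pex5l to Hcn2 (CPM per kb, pseudocount 0.5) was 2.76, 3.29, 0.87 and 0.15 in replicates 1 to 4, with a mean of 1.77 ± 1.49 (SD). The margin over Hcn2 was narrowest in replicate 4 and wider in the first pair, and its size depends on the length used for Pex5l. The log2 ratio to Hcn3 was 2.97, 3.41, 0.60 and 1.53, with a mean of 2.13 ± 1.30. The log2 ratio to Hcn4 was 4.27, 3.48, 2.71 and 2.72, with a mean of 3.29 ± 0.74, or 9.80-fold. Only this last mean exceeded 2 SD when joined exons served as length. With the longest transcript as length the mean log2 ratios of Pex5l to Hcn2, Hcn3 and Hcn4 were 2.82, 3.13 and 4.34, and those to Hcn3 and Hcn4 exceeded 2 SD. With coding length they were 3.66, 3.56 and 4.91, and each exceeded 2 SD.

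Among the channels, Hcn2 and Hcn3 could not be ordered, and Hcn4 was lower than both in every library per kb of joined exon. The log2 ratio of Hcn2 to Hcn3 was 0.21, 0.12, -0.28 and 1.37, with a mean of 0.36 ± 0.71 (SD, n = 4), which is within the spread. With coding length as length the mean turned to -0.092. Without division by length it was 0.029, and only replicate 4 lay above 0. Leaving out replicate 4 per kb of joined exon gave 0.018. The log2 ratio of Hcn2 to Hcn4 was 1.51, 0.19, 1.83 and 2.57 (mean 1.52 ± 0.997), and that of Hcn3 to Hcn4 was 1.30, 0.066, 2.11 and 1.20 (mean 1.17 ± 0.84). Replicate 2 was the library in which both were close to 0. By coding length, or without division by length, Hcn2 exceeded Hcn4 in 3 of 4 libraries, and without division by length Hcn3 did so in 3 of 4 as well. The ratios were tested by flipping their signs in all 16 ways (exact permutation, two-sided). For every ratio but Hcn2 to Hcn3, only 2 of the 16 patterns were as extreme as the data, the fewest that 4 libraries allow. Adjusted over the 6 ratios (Benjamini-Hochberg), the exact permutation p was 0.15 for these and 0.5 for Hcn2 to Hcn3, so the design cannot reach 0.05.

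**Figure D2:**
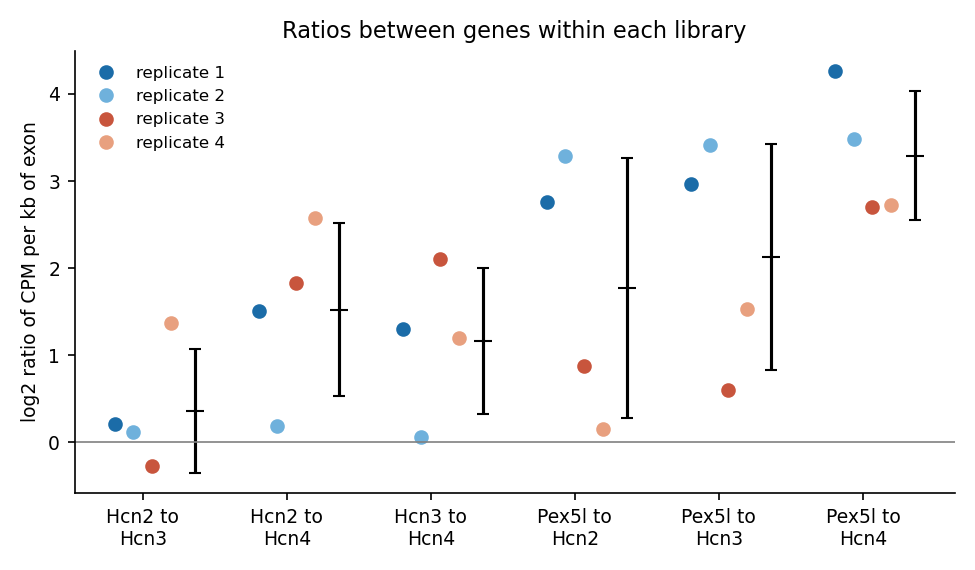
Log2 ratio of CPM per kb of exon between pairs of genes within each library (points, coloured by replicate), with the mean and SD of the 4 libraries in black. The ratios of Pex5l to Hcn2 and Hcn3 lie lower in replicates 3 and 4 than in replicates 1 and 2, and the ratio of Hcn2 to Hcn3 straddles 0.

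The makeup of the 3 channel genes also moved between libraries. Hcn2 made up 51.4%, 36.7%, 40.7% and 65.9% of their summed level per kb in replicates 1 to 4, a mean of 48.7% ± 13.02 (SD). Hcn3 made up 42.0%, 32.7%, 50.0% and 24.4%, so that it led in replicate 3 only. Hcn4 made up 6.58%, 30.6%, 9.30% and 9.72%, and replicate 2 stood apart.

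Both pairs entered edgeR's quasi-likelihood test over 13905 genes, which measures a difference between replicates of 1 group and no treatment. At an adjusted p under 0.05, 1.27% of all genes tested were called, 0.712% higher and 0.554% lower in the second pair, and 0 of the 4 genes described here. Before adjustment, Hcn2 and Hcn3 were under 0.05 in the edgeR test, as were 2334 of the 13905 genes. Hcn2 went from a mean of 4.37 to 42.9 CPM, a log2 difference of 3.26 (SE 0.78, edgeR adjusted p = 0.0621). Hcn3 went from 4.84 to 32.9 CPM, a log2 difference of 2.79 (SE 0.77, edgeR adjusted p = 0.0907). Hcn4 went from 3.85 to 13.8 CPM, a log2 difference of 1.82 (SE 1.17, edgeR adjusted p = 0.481). Pex5l went from 131 to 156 CPM, a log2 difference of 0.24 (SE 0.38, edgeR adjusted p = 0.828). For all 3 channel genes both libraries of the second pair lay above both of the first, as they did for 23.7% of all genes tested.

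The calls for Hcn2 and Hcn3 differed with the tool and the filter, and that for Hcn2 also with single libraries. By DESeq2, which called 9.8% of genes, Hcn2 and Hcn3 rose (DESeq2 adjusted p = 0.000308 and 0.00231), and Hcn4 and Pex5l did not pass (0.345 and 0.817). Without the filter on low counts edgeR called 4.77% of genes, Hcn2 and Hcn3 among them (edgeR adjusted p = 0.00535 and 0.0398). Leaving out replicate 1, 2 or 3 gave edgeR adjusted p-values of 0.0161, 0.0207 and 0.0123 for Hcn2, with 4.6%, 4.29% and 2.74% of genes called. Without replicate 4 the log2 difference of Hcn2 was 2.45 and the edgeR adjusted p was 0.474, with 2.59% of genes called. For Hcn3 no library left out gave a call (edgeR adjusted p from 0.0742 to 0.36). Without replicate 2 the log2 difference of Hcn4 was 3.61 (edgeR adjusted p = 0.188), and without replicate 1 it was 1.03.

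**Figure D3:**
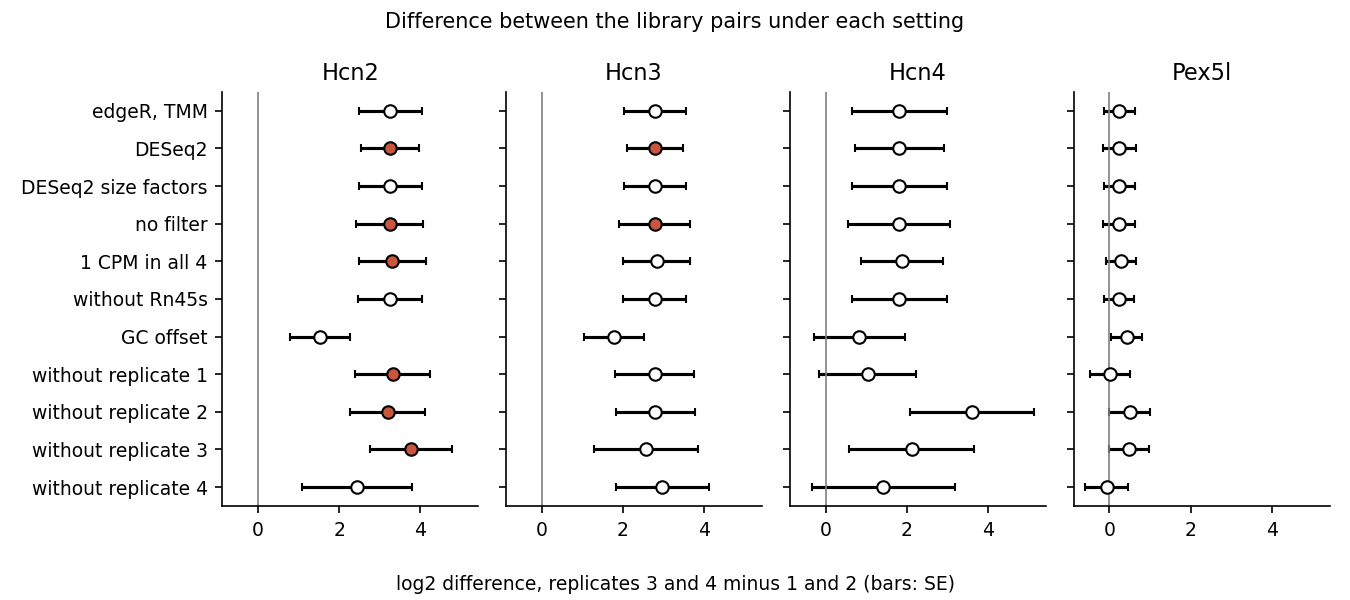
Log2 difference of each gene between replicates 3 and 4 and replicates 1 and 2 under each setting (rows), with SE bars. Filled points have an adjusted p under 0.05. The 3 channel genes lie right of 0 in every row, filled points occur for Hcn2 and Hcn3 only, and each channel gene has its smallest difference with the GC offset.

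GC content moved with the difference between the pairs across the whole transcriptome. Genes tested were split into 10 equal groups by the GC content of their longest transcript. The median log2 difference ran from -0.40 in the lowest group to 1.21 in the highest, and the 48 genes called in the highest group were all higher in the second pair. Hcn2, Hcn3 and Hcn4 all fell in that highest group, and Pex5l in the fourth, where the median was -0.30. In the highest group, both libraries of the second pair lay above both of the first for 56.4% of genes, against 11.2% in the lowest. Within it, 89.7% of genes had a smaller log2 difference than Hcn2, 85.6% a smaller one than Hcn3 and 67.0% a smaller one than Hcn4.

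An offset for GC content, chosen after the data were seen, was then fitted per library. It lowered the log2 difference of Hcn2 to 1.52 (SE 0.74, edgeR adjusted p = 0.42), a fold of 2.87 in place of 9.57. That of Hcn3 fell to 1.78 (SE 0.74, edgeR adjusted p = 0.329) and that of Hcn4 to 0.83 (SE 1.12, edgeR adjusted p = 0.834). Pex5l, of lower GC content, was at 0.42 (SE 0.38, edgeR adjusted p = 0.725). With the offset 0.341% of genes were called. What set the GC gradient between the libraries was not tested. With the offset, Hcn3 rather than Hcn2 had the larger difference.

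**Figure D4:**
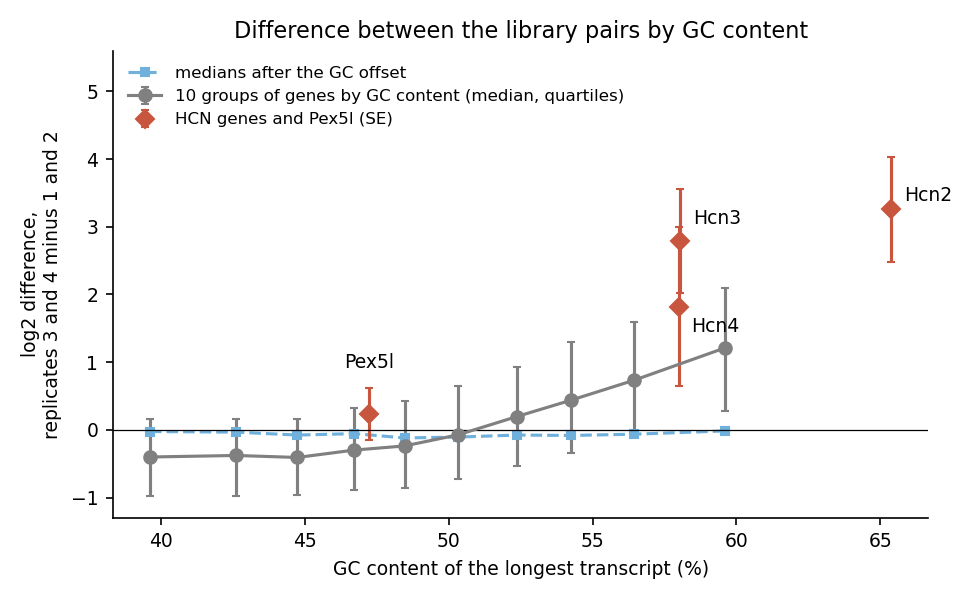
Log2 difference between the library pairs against the GC content of the longest transcript, for 10 equal groups of the genes tested (grey, median and quartiles), the same medians after the GC offset (blue), and the 4 genes described here with SE (red). The grey medians climb from -0.40 to 1.21 with GC content, and Hcn2 and Hcn3 lie above the upper quartile of their group.

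Cell type markers also differed between the libraries, and their part in the channel levels was not tested. For all 6 cerebellar granule cell markers both libraries of the second pair lay below both of the first, as for 23.8% of all genes tested. Their summed level was 591 to 1444 CPM in the first pair and 179 to 294 in the second. Neurod1 and Cbln3 of these fell (edgeR adjusted p = 0.0127 and 0.0238), beside 1.27% of all genes called by edgeR. DESeq2 called these and Gabra6, Zic1, Fat2 and Etv1, beside 9.8% of all genes. Of 5 Purkinje cell markers, Car8 and Itpr1 fell (edgeR adjusted p = 0.0127 and 0.0332), beside 1.27% of all genes called by edgeR. DESeq2 called these and Ppp1r17, beside 9.8% of all genes. The summed level, led by Itpr1, was 1448 to 2479 CPM in the first pair and 680 to 721 in the second. The pairs did not overlap for any of the 5. Of all genes tested, 23.7% lay wholly higher in the second pair and 23.8% wholly lower. Of the 5, 2 lay on the higher side in the second pair and did not pass the test. They were Pcp2 (1.09, 3.60, 5.66 and 11.6 CPM) and Calb1 (log2 difference 0.57). The general neuronal gene Snap25 had a log2 difference of -1.17 (edgeR adjusted p = 0.0553), and the astrocyte gene Aqp4 one of -1.94 (edgeR adjusted p = 0.0729). DESeq2 called both, each the only 1 of 6 in its list, beside 9.8% of all genes. Of 6 noradrenergic markers, led by Slc6a2, 5 were tested and Th rose (edgeR adjusted p = 0.037), beside 1.27% of all genes called by edgeR. DESeq2 called Dbh and Th, beside 9.8% of all genes. The summed level of the 6 was 39.5 to 91.5 CPM in the first pair and 89.3 and 339 in the second. Replicate 4, the library with the most Hcn2 and Hcn4, had the highest summed level of noradrenergic, inhibitory, astrocyte and microglia markers. Replicate 3 had the lowest summed level of astrocyte and inhibitory markers. Its Hcn3, at 35.0 CPM, was not resolved from that of replicate 4, at 30.8 CPM, by counting error. The call for Itpr1 was lost without replicate 2 (edgeR adjusted p = 0.0899), and those for Itpr1 and Th with the GC offset (0.0804 and 0.0934). Of the 2 glutamatergic markers, Slc17a6 was at 468, 479, 300.0 and 384 CPM, lower in the second pair, as for 23.8% of all genes tested. Slc17a7 was at 9.65, 22.2, 24.3 and 27.8 CPM, higher in the second pair, as for 23.7% of all genes tested. Neither was called.

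Genes of proteins that bind HCN channels or TRIP8b were mostly present. Of 15 genes, which include the Pex5l relative Pex5, 10 were at 1 CPM or above throughout. Of the 12 tested, 0 were called between the pairs by edgeR, as against 1.27% of all genes tested. An unadjusted edgeR p under 0.05 was found for 1, beside 2334 of all 13905 genes, and DESeq2 called 1, Mrvi1, beside 9.8% of all genes. The median log2 difference was 0.15 beside -0.03 over all genes tested. With so few of all genes called, a count of 0 sets no list of this size apart. Nedd4l, a ubiquitin ligase that acts on HCN channels, was the highest at 372 ± 124 CPM (SD, n = 4). The membrane contact proteins Vapb and Vapa were at 216 ± 27.5 and 75.8 ± 0.91 CPM, and Vapa held between 74.98 and 76.98 CPM in the 4 libraries. The scaffold genes Magi2 and Apba2, whose products bind HCN2, were at 163 ± 39.6 and 74.6 ± 34.3 CPM, and a further scaffold, Grasp, at 4.22 ± 3.06.

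Partners known for 1 channel type differed widely in level. Kctd3, a partner of HCN3, was at 105, 70.2, 35.8 and 75.1 CPM in replicates 1 to 4, lowest in replicate 3. Mrvi1, whose product IRAG1 regulates HCN4, was at 0, 1.09, 7.07 and 22.5 CPM (log2 difference 4.71, edgeR adjusted p = 0.181). Its second pair lay above its first, as for 23.7% of all genes tested. The order of libraries was that of Hcn4, but how many other genes share this order was not counted. Lrmp, which also encodes an HCN4 regulator, was at 0 counts in all 4 libraries, as were Kcne2 and Cav3, where the limit set by 3 counts was 0.142 to 0.236 CPM, depending on the library. Rab8b, for which TRIP8b was named as a partner, was at 65.2 ± 20.05 CPM, and Pex5, the peroxisomal import receptor gene related to Pex5l, at 15.4 ± 6.06. The kinase gene Src was at 3.60, 2.51, 8.88 and 17.6 CPM and the filamin gene Flna at 10.8 ± 5.28.

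**Figure D5:**
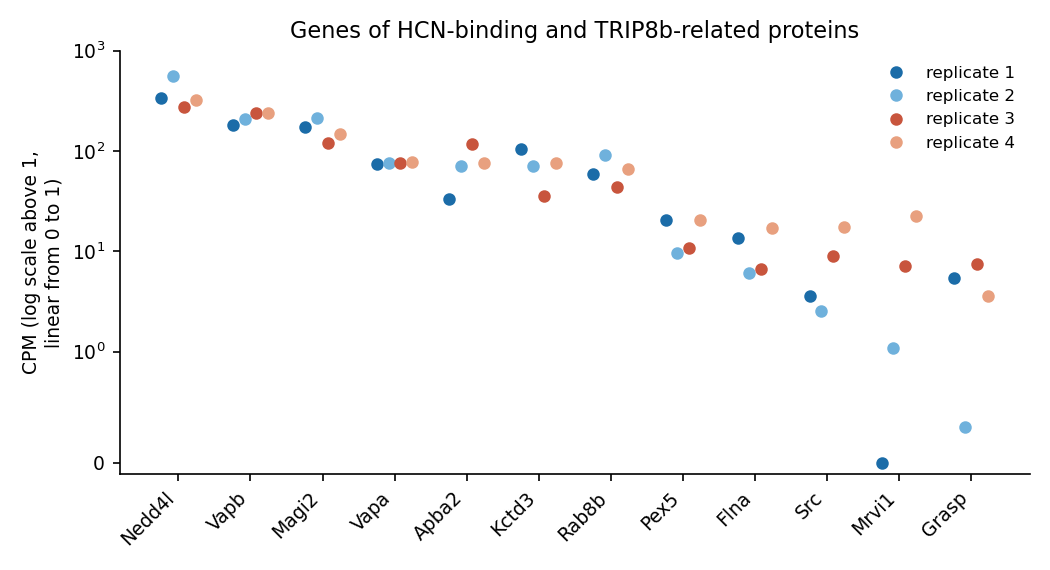
CPM of the 12 detected genes of HCN-binding and TRIP8b-related proteins in each library, ordered by mean level, on an axis that is linear from 0 to 1 and logarithmic above. Nedd4l, Vapb and Magi2 lie above 100 CPM in every library, and Mrvi1 runs from 0 to 22.5 CPM.

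Cyclic AMP, which eases HCN opening, is made by adenylyl cyclases and broken down by phosphodiesterases. All 9 adenylyl cyclase genes reached 1 CPM in all 4 libraries, led by Adcy1 at 260 ± 124 CPM and Adcy2 at 161 ± 51.2 (SD, n = 4). Of 15 phosphodiesterase genes, 14 did so, led by Pde4b at 392 ± 197 CPM and Pde4d at 252 ± 42.2. Among the 9 cyclase and 14 phosphodiesterase genes tested, edgeR called 0 in either direction, beside 1.27% of all genes. Before adjustment 2 and 3 had an edgeR p under 0.05, beside 2334 of all 13905 genes. DESeq2 called Adcy3 as higher and Pde1c and Pde4b as lower in the second pair, beside 9.8% of all genes. The median log2 differences were -0.07 and -0.05. The nearest relatives of HCN channels, the cyclic nucleotide-gated channels of the senses, were low or missing apart from Cngb1 in replicate 4. Of 6 such genes, 0 reached 1 CPM throughout and 3 had no count in any library (Cnga1, Cnga2 and Cngb3). Cngb1 was at 0.331, 0.257, 1.34 and 21.02 CPM and Cnga4 at 1.66, 0, 3.93 and 0. Of the 2 tested, edgeR called 0, beside 1.27% of all genes, and 1 had an unadjusted p under 0.05, beside 2334 of all 13905 genes. DESeq2 called 1, Cngb1, beside 9.8% of all genes.

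Other channels that pass current near the resting potential spanned a wide range of levels. All 6 genes of T-type calcium and NALCN leak channels reached 1 CPM in all 4 libraries. By edgeR 0 of 6 were called, beside 1.27% of all genes, and 2 had an unadjusted p under 0.05, beside 2334 of all 13905 genes. DESeq2 called 1, Cacna1h, beside 9.8% of all genes. The median log2 difference of the 6 was 0.73. Unc80, a subunit of the NALCN leak channel, was at 714, 987, 728 and 1271 CPM, and Nalcn itself at 121 ± 40.9 (SD, n = 4). The T-type pore genes were lower, with Cacna1g at 70.8 ± 29.4 CPM, Cacna1i at 22.2 ± 19.5 and Cacna1h at 8.94, 3.60, 27.5 and 32.6 CPM. Per kb, Cacna1h and Cacna1i had means of 1.86 and 2.25 CPM, below those of Hcn2 and Hcn3. Cacna1g, with a mean of 6.99 CPM per kb, lay above Hcn3 and below Hcn2. The means of Hcn2 and Hcn3 were raised by the second pair. In replicates 1 and 2, Hcn2 was at 1.45 and 1.29 CPM per kb and Hcn3 at 1.18 and 1.15.

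The libraries in which each gene was high or low were compared with those of 6436 other genes that never fell below 10 CPM, by the largest difference over the 4 libraries after centring log2 CPM. For Pex5l the closest were Unc80 (largest difference 0.03 log2 units) and the potassium leak channel gene Kcnk2 (0.06), but 1124 genes lay within 0.5. For Hcn3 the closest were Elfn2 (0.11) and Atp5g1 (0.23), and 20 genes lay within 0.5. For Hcn2, only Abat, which breaks down GABA, lay within 0.5 (0.20), followed by Ypel3 (0.64). Abat was at 45.8, 35.5, 234 and 527 CPM. For Hcn4, only Zer1 lay within 0.5 (0.46), followed by Taok2 (0.59).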

How the data were processed

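Per the labels, ribosome-bound RNA of 4 immunopurified libraries was sequenced. The authors deposited raw read counts per gene symbol, not normalized; STAR 2.0.0e, HTSeq and mm10 are named in the submitters' processing notes. The annotation and strand setting are not given in the sources used here. The 5 HTSeq summary rows and a row named unknown, with 0 counts, were left out; reads outside features made up 24.0% to 30.1% of a table. CPM used all gene rows of a library; tests used the 31735 shared rows. Replicates 3 and 4 share part of a label in their descriptions; their titles were followed, and their counts differed far beyond sampling noise (chi-square 215 per degree of freedom).

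Lengths, coordinates and sequences came from GENCODE M21 (GRCm38, the assembly of mm10). The library pairs were compared with edgeR 4.0.16 after TMM scaling and filterByExpr, by its quasi-likelihood test, with Benjamini-Hochberg adjusted p under 0.05 as threshold; the script was tested on simulated data. Ratios had a pseudocount of 0.5 CPM per kb. Alternatives were DESeq2 1.42.0, its size factors, 2 other filters, removal of Rn45s, other lengths and pseudocounts, each replicate left out, and, added after the data were seen, coding length in GENCODE and a GC offset (loess, span 0.3, 92.7% of tested genes had a GC content). Genes named were the 4 members, the 2 most alike in pattern to each, and every HCN binding protein. Named too were the 2 highest of each other pathway list and any called, and the highest marker of each list described. The marker genes Slc17a6, Slc17a7, Pcp2, Calb1, Th and others that were called, genes called by DESeq2, T-type pore genes, Cnga4, and Abat's values were given besides, after values were seen. A further glial marker list is not reported here. Genes and lists were chosen with earlier results of these data known.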

Additional observations from a re-analysis of the deposited data

Results flagged for a closer look

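The share of Hcn4 in the summed level per kb of Hcn2, Hcn3 and Hcn4 had 1 library far from the others. Replicate 2 was at 30.6%, beside 6.58% to 9.72% in replicates 1, 3 and 4, and its gap to the nearest library was 0.869 of the whole range, above the 95% limit of Dixon's test for 4 samples. Of 13 levels, ratios and shares examined this was the only one over the limit. Chance gives about 1 in 20 for each item, so 1 among 13 is not beyond what chance gives. The 13 items share genes and libraries and are not independent.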

How the results depend on the processing

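All 28 alternative values of the levels and all 7 of the Hcn2 share stayed within 1 SD of the reported value, a wide margin for Hcn2, whose SD exceeds its mean and whose mean fell to 10.2 CPM without replicate 4. In 47 of 48 alternatives the mean ratio kept its direction, although for Hcn2 to Hcn3 without division by length (0.029) only 1 of 4 libraries did. The exception was Hcn2 to Hcn3 with GENCODE coding length, at -0.092. Of 40 alternative differences between the library pairs, 31 kept direction and side of the threshold. Hcn2 was called by DESeq2 (log2 3.26), with no filter (3.25) and with a filter of 1 CPM in all 4 libraries (3.31), and Hcn3 by DESeq2 (2.79) and with no filter (2.78). Without 1 replicate, Hcn2 ran from 2.45 to 3.77, and Pex5l from -0.073, without replicate 4, to 0.50. The pairs differed in 176 genes, beside 1283 by DESeq2, 875 with no filter, 528 at 1 CPM in all 4 libraries, 44 with the GC offset and 389 to 699 without 1 replicate. The causes of these shifts were not tested. Where 1 library remained in a pair, it was assumed to vary like the other pair. Lengths from RefSeq proteins were not run. No paired analysis was possible because the libraries form 1 group. Counts of 24 to 104 for the channel genes in the first pair limit their precision there.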
